A study of Mus musculus with 15 samples.

Results

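Genes of arginine and polyamine metabolism were followed across 15 Affymetrix arrays of mouse mammary tumour spheres. The 10 genes are Arg1, Arg2, Nos2, Odc1, Ass1, Asl, Oat, Slc7a1, Slc7a2 and Sms, out of 18193 genes with a probe set of their own. They were chosen by pathway and by their measured differences between each treatment and its own DMSO arrays, so those differences are given below as descriptions, and counts of genes past the threshold in these contrasts support nothing. The platform annotation placed 21 probe sets on the 10 genes, of which 17 belonged to 1 gene and 4 were shared with another gene. A probe set of its own was found for 9 of the 10 genes, and Sms was read only through 3 probe sets that it shares with the pseudogene Sms-ps.

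Arginine enters cells through the cationic amino acid transporters encoded by Slc7a1 and Slc7a2, or is built from citrulline by argininosuccinate synthase (Ass1) and argininosuccinate lyase (Asl). Arginases split it into urea and ornithine, and the inducible nitric oxide synthase, Nos2, turns it into nitric oxide and citrulline. Ornithine decarboxylase (Odc1) opens the polyamine route, in which spermine synthase (Sms) makes spermine, while ornithine aminotransferase (Oat) sends ornithine towards proline and glutamate. In tumours, Arg1 is best known from myeloid cells, where it depletes arginine around T cells.

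The spheres were grown for 7 days without attachment from primary mammary gland tumours of FVB/N mice of the genotype WAPCre-DNbcatn;HGF, which all 5 groups share. WAPCre names a Cre recombinase driven by the whey acidic protein promoter of milk-secreting epithelium, and the labels do not spell out the other elements. The study asked how inhibitors of the Wnt and MET pathways act alone and together. Each group was treated for 24 h and held 3 arrays. The first set of 9 arrays held PHA, ICG and DMSO, and the second set of 6 arrays, with another code in the array titles, held PHA+ICG and its own DMSO vehicle control. PHA is taken here as the MET inhibitor and ICG as the Wnt inhibitor, after the usual use of these abbreviations. No dose is printed in the labels, and nothing says whether replicates came from separate tumours or cultures. The p-values then measure no more than the spread among these arrays, and that spread may be technical.

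The second set stood apart from the first in 2 ways that touch the results below. Its arrays spread more, with a median SD over genes of 0.251 (PHA+ICG) and 0.181 (DMSO) on the log2 scale, against 0.085 to 0.097 in the 3 groups of the first set. Its cell markers also differed: the mean log2 value of 12 macrophage markers was 9.37, 7.36 and 7.42 on the PHA+ICG arrays and 10.42, 8.30 and 8.24 on the DMSO arrays of the second set, against 10.34 to 11.45 on the arrays of the first set. Replicate 1 of both groups of the second set was thus the highest of its group in these markers. The mean over 8 epithelial markers, which check the labelled tissue, lay between 7.48 and 9.16 on all arrays. In bulk RNA, fewer cells of a type and less RNA per cell cannot be told apart.

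The 9 measured genes did not move as a block across the treatments. Arg1 was 9.09 to 10.7 times lower than in DMSO with each treatment, the arginine transporter gene Slc7a1 was higher with ICG and with PHA+ICG and lower with PHA, and Arg2, Asl and Nos2 lay within 0.18 of DMSO (log2) with PHA and with ICG. Counted at an adjusted p under 0.05 (limma, Benjamini-Hochberg over all genes tested), 0 genes of the 9 were higher and 3 were lower with PHA, where 10.2% of all genes passed, and 3 of the 9 had an unadjusted p under 0.05. With ICG 1 was higher and 3 were lower, where 26.9% of all genes passed, and with PHA+ICG 1 was higher and 1 was lower, where 2.02% passed. The labels do not say that arrays are paired. With the replicate numbers of the second set taken as pairs in a block, 3 were higher (Slc7a1, Slc7a2 and Odc1) with PHA+ICG. With that assumed pairing 2 were lower (Arg1 and Oat). With the spread pooled over all 15 arrays, 0 were higher and 1 was lower with PHA, 1 was higher and 2 were lower with ICG, and 2 were higher and 2 were lower with PHA+ICG. The PHA counts of Slc7a1 and Slc7a2 were lost there, and that of Slc7a1 also with the mean of its probe sets. Slc7a1 was no longer counted with PHA+ICG without replicate 2 or 3 of either group, and Ass1 was no longer counted with ICG without replicate 2 or 3 of DMSO or of ICG. The log2 differences of the 9 genes had a median of -0.18 (PHA), 0.00 (ICG) and 0.22 (PHA+ICG), beside 0.02, 0.03 and 0.002 over all genes. These counts come from the contrasts used in choosing the genes and say nothing further about them. PHA minus ICG is the difference of 2 of those contrasts. Its p-values for these genes, given below, are therefore no independent test.

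**Figure D1:**
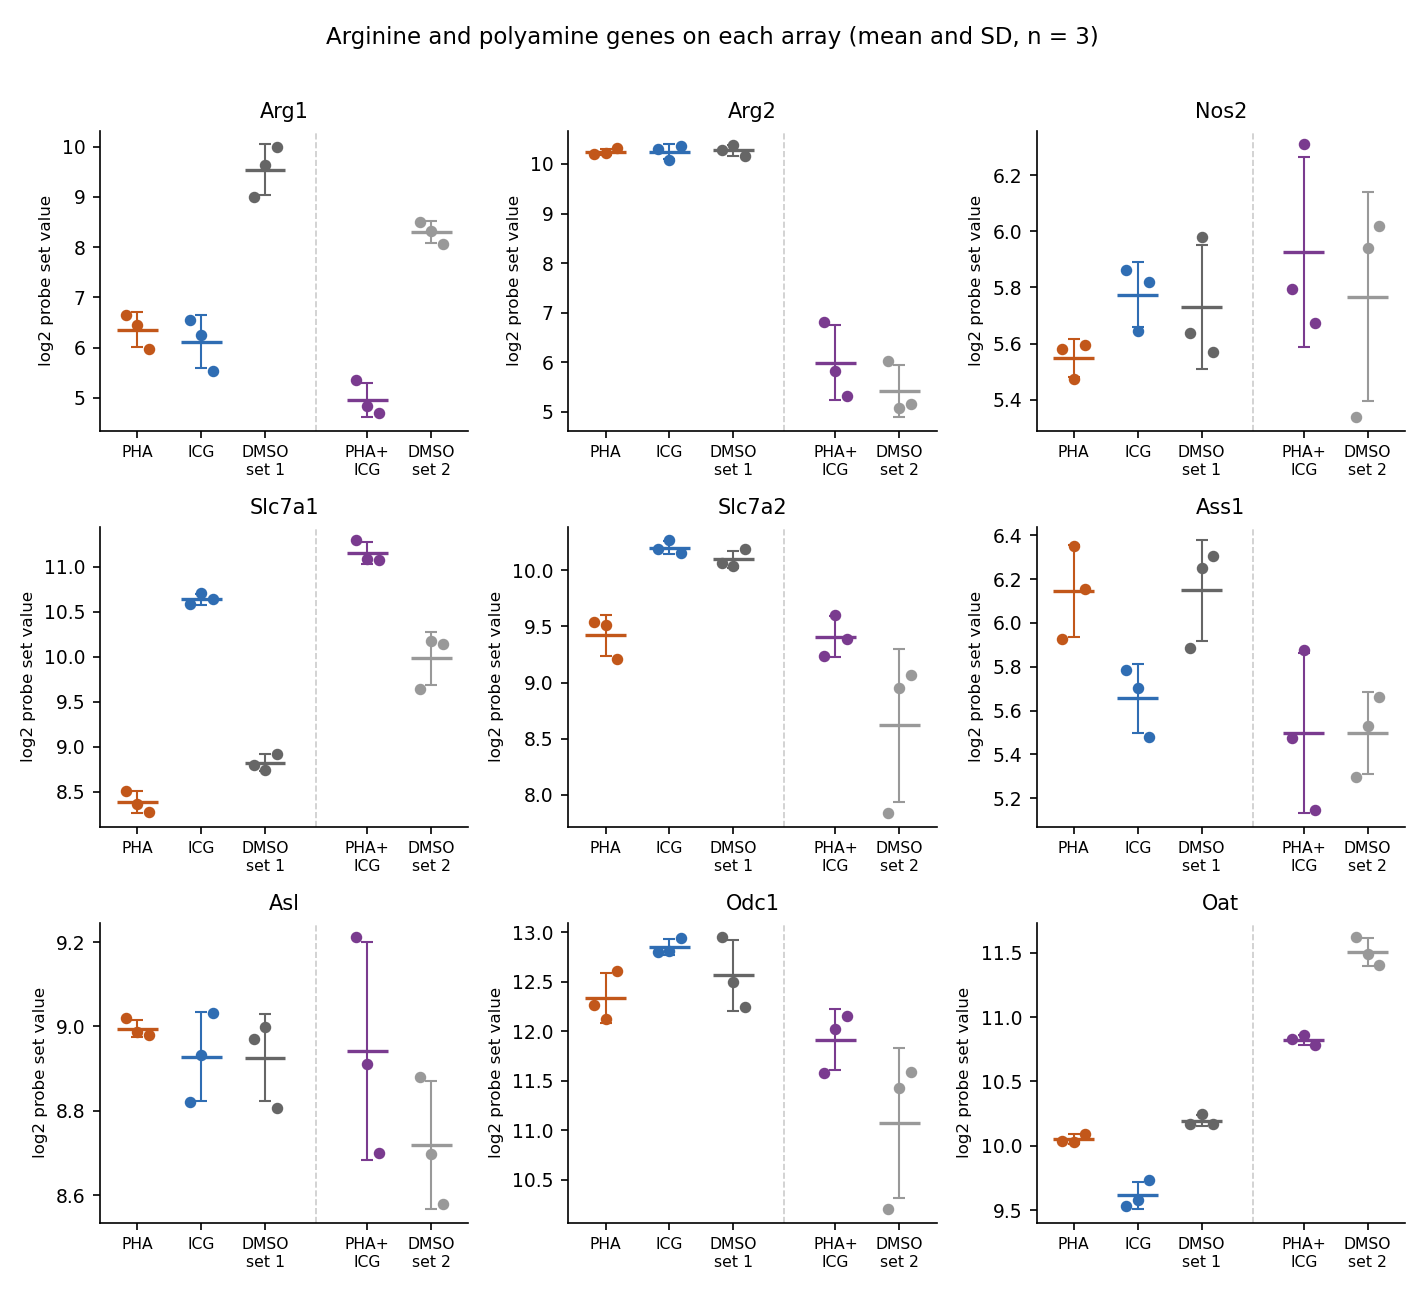
Log2 probe set values of the 9 genes with a probe set of their own on each of the 15 arrays (points), with the mean (line) and SD (bar) of the 3 arrays of a group; the dashed line parts the first set from the second, and each panel has its own vertical axis, which does not start at 0. Arg1 lies below its DMSO arrays in all 3 treatments, Slc7a1 lies above them with ICG and PHA+ICG, and Arg2 is low on all 6 arrays of the second set.

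Arg1 encodes the cytosolic arginase, the last enzyme of the urea cycle in liver (chr10:24915207-24927470, GRCm38.p6, probe set 1419549_at). Its log2 value was 6.66, 6.44 and 5.98 on the PHA arrays and 6.56, 6.26 and 5.54 on the ICG arrays, against 9.00, 9.64 and 9.99 on the DMSO arrays of the first set. It was 5.34, 4.84 and 4.69 on the PHA+ICG arrays, against 8.50, 8.33 and 8.06 on the DMSO arrays of the second set. Every treated array lay below every DMSO array of its set, so no treated group overlapped its DMSO group. The difference from DMSO was -3.18 ± 0.30 under PHA, -3.42 ± 0.30 under ICG and -3.34 ± 0.21 under PHA+ICG (log2, SE of the limma fit), or 9.09, 10.7 and 10.1 times lower. Ordered by that difference, Arg1 ranked 1 from the lowest of 18193 genes under PHA, 3 under ICG and 5 under PHA+ICG. Between the agents no difference was detected: PHA minus ICG was 0.24 ± 0.30 with a 95% interval of -0.42 to 0.90 (adjusted p = 0.623, limma), and the groups overlapped. That interval leaves room for a difference of up to 0.90 on the log2 scale. Treated values lay on both sides of the median probe set of their arrays (5.745 to 5.928). Background signal may limit the folds and this comparison. The PHA+ICG difference can only be set beside those of the single agents, since it was measured in another set against other DMSO arrays, and it was -3.43 without replicate 1 of both groups of the second set.

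Markers of several cell types were also lower in the treated spheres, and their part in the Arg1 values was not tested. The counts below stand beside the share of all genes called in either direction. That share was 10.2% under PHA, 26.9% under ICG and 2.02% under PHA+ICG. For PHA+ICG the pairing as a block called 1442 of all 18193 genes. The mean log2 value of 8 mast cell and basophil markers was 7.16 to 7.37 with PHA and 7.65 to 7.87 with ICG, against 8.47 to 8.54 with DMSO, and 7 and 6 of the 8 genes were called lower. With PHA+ICG it was 6.98 to 7.21, against 7.77 to 8.09 in DMSO, and 2 of the 8 were called lower. The 9 fibroblast markers averaged 9.74 to 9.91 with PHA and 8.84 to 9.54 with ICG, against 10.31 to 10.95 with DMSO, with 5 and 8 of the 9 called lower. With PHA+ICG they averaged 11.03 to 11.36, against 11.74 to 12.03 in DMSO, with 1 of the 9 called lower. Macrophage markers averaged 10.87 to 11.04 with PHA and 10.34 to 10.60 with ICG, against 11.08 to 11.45 with DMSO, with 2 and 8 of the 12 called lower. With PHA+ICG 0 of the 12 macrophage markers were called lower, 3 had an unadjusted p under 0.05, and 8 were called lower with the pairing as a block. The 7 markers of alternatively activated macrophages averaged 7.82 to 8.01 with PHA and 7.80 to 7.98 with ICG, against 8.22 to 8.58 with DMSO. Of these 7, 4 were called lower with PHA, while 2 were called higher and 2 lower with ICG. With PHA+ICG they averaged 6.42 to 6.87, against 6.85 to 7.36 in DMSO, and 0 were called, with 2 at an unadjusted p under 0.05 and 1 called lower with the block. The 8 epithelial markers averaged 8.05 to 8.13 with PHA and 8.01 to 8.13 with ICG, against 8.24 to 8.30 with DMSO, with 3 and 4 of the 8 called lower. With PHA+ICG they averaged 7.48 to 8.92, against 8.61 to 9.16 in DMSO, and 0 were called, with 3 at an unadjusted p under 0.05 and 4 called lower with the block. Of 6 granulocyte markers, 2 were called lower with PHA (33.3%), 0 were called with ICG and 1 was called lower with PHA+ICG (16.7%). Of 4 adipocyte markers, 0 were called with PHA, 1 was called higher and 1 lower with ICG (50%), and 1 lower with PHA+ICG (25%). Of 6 endothelial markers, 1 was called lower with PHA (16.7%) and 0 were called with ICG or PHA+ICG. Within DMSO, replicates 2 and 3 of the second set had macrophage means of 8.30 and 8.24 and Arg1 at 8.33 and 8.06, and replicate 1, at a macrophage mean of 10.42, had Arg1 at 8.50.

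The genes whose pattern was most like that of Arg1 were found by the Pearson correlation over the 15 arrays, after the mean of the DMSO arrays of its own set was taken from each array. Among 9096 genes with a mean above the median gene these were Gsdmd (0.961), which encodes the pore-forming gasdermin D, Hsd11b1 (0.953), an enzyme that activates glucocorticoids, S100a6 (0.947), Zranb3 (0.946), a DNA translocase gene, and Zeb1 (0.940), a transcription factor of epithelial-mesenchymal transition. The arrays share their treatment and set, so these values mostly describe the step between DMSO and treated arrays. Of the other 8 genes measured, Oat came nearest to Arg1, at 0.767, and the rest ran from -0.512 (Slc7a1) to 0.350 (Ass1). For Gsdmd, Hsd11b1, S100a6, Zranb3 and Zeb1, deviations from group means correlated with those of Arg1 at 0.415 to 0.593. With the 3 treatments Gsdmd and S100a6 differed from DMSO by -0.27 to -0.53, against -3.18 to -3.42 for Arg1. Between the DMSO groups, a step that the subtraction removes, Hsd11b1 (2.46), Zeb1 (1.43) and S100a6 (1.07) were higher in the second set. Gsdmd (-0.36) and Zranb3 (-0.54) were lower there, as was Arg1 (-1.25).

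Arg2, the mitochondrial arginase gene (chr12:79130788-79156301, probe set 1418847_at), showed another arrangement, with differences near 0 under the single agents and a wide gap between the sets. Its log2 value was 10.19, 10.21 and 10.32 with PHA and 10.29, 10.09 and 10.37 with ICG, against 10.29, 10.38 and 10.15 with DMSO. In the second set it was 6.82, 5.83 and 5.32 with PHA+ICG, against 6.02, 5.08 and 5.15 with DMSO. All 9 arrays of the first set lay above all 6 of the second, while treated and DMSO arrays overlapped within each set. The differences from DMSO were -0.03 ± 0.09 under PHA, -0.02 ± 0.09 under ICG and 0.57 ± 0.40 under PHA+ICG. PHA minus ICG was -0.01 ± 0.09, with a 95% interval of -0.21 to 0.19 (adjusted p = 0.96, limma). DMSO spheres of the second set were at 5.42 ± 0.52 and those of the first at 10.27 ± 0.12 (SD, n = 3 each), a difference of -4.85 ± 0.30 or 28.9-fold (adjusted p = 2.47e-08, limma on all 15 arrays). In that comparison Arg2 ranked 9 from the lowest of 18193 genes, and its other probe set differed by -4.50. Arg2 values of the second set lay on both sides of the median probe set of those arrays (5.761 to 5.928), and background signal may limit the fold.

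The vehicle arrays differed for most of the other genes too, in a comparison where set and culture cannot be told apart. Of the 9 genes, 2 were higher and 5 were lower in DMSO of the second set than in DMSO of the first, where 27.4% of all genes passed. Slc7a1 was higher by 1.16 ± 0.13 (adjusted p = 1.35e-05) and Oat by 1.31 ± 0.09 (adjusted p = 1.07e-07). Besides Arg2, Slc7a2 was lower (-1.48 ± 0.24, adjusted p = 0.00027), as were Odc1 (-1.49 ± 0.29, adjusted p = 0.00142) and Arg1 (-1.25 ± 0.28, adjusted p = 0.00424). Ass1 was lower by its own probe set (-0.65 ± 0.18, adjusted p = 0.0147), which became 0.0601 and 0.0645 without replicate 2 or replicate 3 of DMSO of the first set. A brighter probe set, shared by Ass1 and the pseudogene Gm5424, differed by -1.57 without overlap. Asl differed by -0.21 ± 0.13 (adjusted p = 0.264, 95% interval -0.48 to 0.07) and Nos2 by 0.04 ± 0.19 (adjusted p = 0.914, 95% interval -0.37 to 0.44). Both arginase genes were thus lower in the second vehicle group, with a difference of -4.85 for Arg2 and -1.25 for Arg1.

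Macrophage markers and some other myeloid markers differed in the same comparison, and their part in the Arg2 gap was not tested. Of the 12 macrophage markers, 10 were called lower in DMSO of the second set, or 83.3% beside 27.4% of all genes. The mean of the 12 was 10.42, 8.30 and 8.24, against 11.08, 11.44 and 11.45 in DMSO of the first. Of the 6 granulocyte markers, S100a8 and S100a9 were called lower and the other 4 did not pass. That is 33.3% of the list, near the share of all genes, and its median difference was -0.14. The list averaged 5.89, 6.42 and 6.43, against 7.79, 7.51 and 7.66. S100a9, a calcium-binding protein gene of neutrophils, differed by -6.92 ± 0.36 (adjusted p = 4.84e-09), an example picked after its values were seen. Of 7 markers of alternatively activated macrophages, 1 was called higher, 3 were called lower (Clec10a, Mrc1 and Cd163) and 3 did not pass, with a median difference of -0.21. Clec10a, a lectin gene, differed most of these, by -4.98 ± 0.16 (adjusted p = 3.56e-11). In both groups of the second set, replicate 1 was the highest in Arg2 and in the macrophage mean. DMSO replicate 1 of that set had a macrophage mean of 10.42, below the DMSO arrays of the first set (11.08 to 11.45). That mean lay inside the range of the ICG arrays (10.34 to 10.60). The same array was the lowest of its group in the granulocyte mean (5.89). Its Arg2 value was 6.02, below the lowest array of the first set (10.09).

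**Figure D2:**
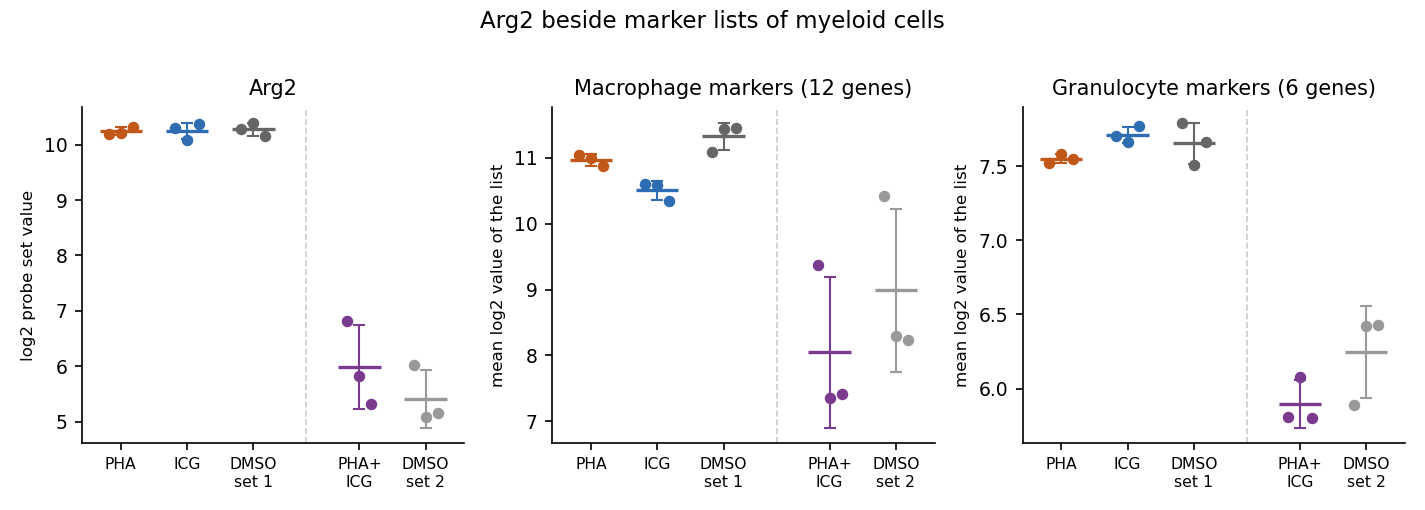
Log2 value of Arg2 (left) and the mean log2 value of 12 macrophage and 6 granulocyte markers (middle and right) on each array (points), with mean (line) and SD (bar) of the 3 arrays of a group; the dashed line parts the sets and axes do not start at 0. Arg2 is near 10 on the arrays of the first set and between 5.08 and 6.82 on those of the second, where replicate 1 of each group has the highest macrophage mean of its group.

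Slc7a1 (chr5:148327410-148399904, probe set 1454991_at) encodes CAT-1, the main arginine transporter of most tissues outside the liver. Its log2 value was 8.52, 8.36 and 8.28 with PHA and 10.58, 10.71 and 10.64 with ICG, against 8.80, 8.74 and 8.93 with DMSO. In the second set it was 11.29, 11.08 and 11.07 with PHA+ICG, against 9.65, 10.17 and 10.14 with DMSO. The 3 groups of the first set did not overlap, and PHA lay below DMSO while ICG lay above it. The differences from DMSO were -0.44 ± 0.08 under PHA, 1.82 ± 0.08 under ICG and 1.16 ± 0.19 under PHA+ICG. PHA and ICG differed by -2.26 ± 0.08, or 4.78-fold (adjusted p = 2.42e-07, limma), which was larger than the spread of either group. With the mean of its probe sets Slc7a1 differed by 1.09 under ICG, and PHA minus ICG was -1.42. A further probe set gave -0.53, 1.40 and 0.95 for the 3 treatments, and a dim one, near 4.5 on the log2 scale, gave -0.02, 0.06 and 0.52. Among all genes Slc7a1 ranked 14 from the highest with ICG and 66 with PHA+ICG.

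Slc7a2 (chr8:40862341-40922070, probe set 1436555_at) encodes CAT-2, a transporter induced in activated macrophages. Its log2 value was 9.54, 9.51 and 9.21 with PHA and 10.19, 10.27 and 10.15 with ICG, against 10.07, 10.04 and 10.19 with DMSO. In the second set it was 9.24, 9.60 and 9.39 with PHA+ICG, against 7.84, 8.95 and 9.07 with DMSO. PHA arrays lay below DMSO, ICG arrays overlapped DMSO, and PHA+ICG arrays lay above their DMSO arrays, among which replicate 1 was lowest. The differences were -0.68 ± 0.09 under PHA, 0.11 ± 0.09 under ICG and 0.79 ± 0.32 under PHA+ICG, and the last was 0.48 without replicate 1 of both groups. Each PHA+ICG array lay above the DMSO array of its own number, and with the pairing as a block Slc7a2 was counted as higher. The 3 other probe sets of Slc7a2 differed by -0.60, -0.82 and -0.31 under PHA, without overlap with DMSO. Under ICG 1 of them differed by -0.40 without overlap, and the other 2 (-0.04 and 0.05) overlapped DMSO. Under PHA+ICG they differed by 0.60, 0.35 and 0.20, and all 3 overlapped their DMSO arrays. PHA and ICG differed by -0.78 ± 0.09 (adjusted p = 0.000185), which became 0.0589 with the spread pooled over all 15 arrays. Both transporter genes were therefore lower with PHA than with ICG.

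Promoter sequences are shown for the 3 genes that had an ICG difference and an entry in the RefSeq promoter table (GRCm38.p6), which covered 5 of the 10 genes. Each run holds 250 bases before and 50 after an annotated start, 5′ to 3′ on the gene's strand. Capitals mark the matches to 3 motifs searched on both strands: CCAAT, TGATGNAA (the ATF4 composite element, a motif of amino acid response genes) and CACGTG (the E-box bound by MYC and its relatives). RefSeq lists 2 starts for Slc7a1, and the window of the upstream one is shown, since it lies at the gene's 5′ end; the other, chr5:148392766-148393065, held no match to the 3 motifs. The Slc7a1 window shown is chr5:148399855-148400154 on the minus strand, that of Oat is chr7:132576349-132576648 on the minus strand, and that of Ass1 is chr2:31470020-31470319 on the plus strand.
Slc7a1: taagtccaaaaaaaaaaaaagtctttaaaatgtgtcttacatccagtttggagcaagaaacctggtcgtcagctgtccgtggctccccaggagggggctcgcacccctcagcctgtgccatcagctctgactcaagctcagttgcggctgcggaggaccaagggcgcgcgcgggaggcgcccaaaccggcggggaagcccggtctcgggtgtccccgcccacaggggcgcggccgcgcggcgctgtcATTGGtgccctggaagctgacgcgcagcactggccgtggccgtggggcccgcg
Oat: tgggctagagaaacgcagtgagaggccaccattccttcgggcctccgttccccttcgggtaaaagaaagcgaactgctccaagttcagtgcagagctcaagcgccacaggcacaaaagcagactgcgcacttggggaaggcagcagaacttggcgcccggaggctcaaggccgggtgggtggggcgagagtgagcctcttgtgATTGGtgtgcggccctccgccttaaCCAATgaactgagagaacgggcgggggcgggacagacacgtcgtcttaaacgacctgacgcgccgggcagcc
Ass1: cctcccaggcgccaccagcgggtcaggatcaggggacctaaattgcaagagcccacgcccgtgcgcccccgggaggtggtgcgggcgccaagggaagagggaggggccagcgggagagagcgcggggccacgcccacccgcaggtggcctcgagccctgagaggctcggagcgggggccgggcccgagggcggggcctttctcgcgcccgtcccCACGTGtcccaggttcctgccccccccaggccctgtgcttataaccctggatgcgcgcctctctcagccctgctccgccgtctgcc
In the Slc7a1 window shown CCAAT was matched 1 time, beginning 3 bases before the start and running across it. In the Oat window it was matched 2 times, beginning 47 and 22 bases before the start. CACGTG was matched 1 time in the Ass1 window, beginning 36 bases before the start, and TGATGNAA had no match in the 3 windows. Of 32851 promoters in all, 37.4% held CCAAT, 7.15% held CACGTG and 3.97% held TGATGNAA. No match overlapped another. These are matches of letters in a short window and show no binding.

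Ass1 and Asl make arginine from citrulline. The log2 value of Ass1 by its own, dim probe set (chr2:31470270-31520670, probe set 1459937_at) was 5.93, 6.35 and 6.16 with PHA and 5.79, 5.70 and 5.48 with ICG, against 5.89, 6.25 and 6.31 with DMSO. In the second set it was 5.47, 5.88 and 5.14 with PHA+ICG, against 5.30, 5.53 and 5.66 with DMSO. ICG arrays alone lay clear of DMSO, at a difference of -0.49 ± 0.14. PHA and ICG differed by 0.49 ± 0.14 (adjusted p = 0.0238). That call was lost with the pooled spread (0.134) and without PHA replicate 2 (0.09) or 3 (0.0623) or ICG replicate 2 (0.0509) or 3 (0.0897). A second, brighter probe set, which cannot tell Ass1 from the transcribed pseudogene Gm5424, had differences of -0.22 under PHA, -1.34 under ICG and -0.72 under PHA+ICG. By it ICG arrays did not overlap DMSO, while PHA and PHA+ICG arrays did. Each PHA+ICG array lay below the DMSO array of its own number. PHA minus ICG was 1.12 by this probe set, without overlap. Asl (chr5:130011258-130024381, probe set 1448350_at) differed from DMSO by 0.07 ± 0.07 under PHA, 0.00 ± 0.07 under ICG and 0.22 ± 0.18 under PHA+ICG, and treated and DMSO arrays overlapped each time. PHA minus ICG was 0.07 ± 0.07 for Asl (adjusted p = 0.58, 95% interval -0.10 to 0.23).

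Nos2 (chr11:78920787-78960226, probe set 1420393_at), the other consumer of arginine, averaged 5.55 ± 0.07 with PHA and 5.77 ± 0.12 with ICG, against 5.73 ± 0.22 with DMSO (SD, n = 3 each). It averaged 5.93 ± 0.34 with PHA+ICG, against 5.77 ± 0.37 with its DMSO. Treated and DMSO arrays overlapped in all 3 treatments, and the differences were -0.18 ± 0.11, 0.04 ± 0.11 and 0.16 ± 0.25. PHA minus ICG was -0.22 ± 0.11 (adjusted p = 0.162, 95% interval -0.46 to 0.01).

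Odc1 (chr12:17544808-17551502, probe set 1438761_a_at), the rate-limiting gene of polyamine synthesis and a textbook MYC target, had log2 values of 12.27, 12.12 and 12.61 with PHA and 12.80, 12.80 and 12.94 with ICG, against 12.96, 12.49 and 12.25 with DMSO. In the second set it was 11.57, 12.02 and 12.16 with PHA+ICG, against 10.20, 11.42 and 11.59 with DMSO. All 3 treatments overlapped DMSO, with differences of -0.23 ± 0.17, 0.28 ± 0.17 and 0.84 ± 0.36, and the last was 0.58 without replicate 1 of both groups. Each PHA+ICG array lay above the DMSO array of its own number, and with the pairing as a block Odc1 was counted as higher. The other 2 Odc1 probe sets differed by 0.92 and 0.85 under PHA+ICG without overlap with DMSO. PHA and ICG did not overlap and differed by -0.52 ± 0.17 (adjusted p = 0.0477). This call stood near the threshold: it became 0.403 with the pooled spread and ran from 0.0239 to 0.16 when PHA or ICG arrays were left out in turn, passing only without PHA replicate 3.

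Oat (chr7:132557475-132576398, probe set 1416452_at) had log2 values of 10.04, 10.03 and 10.09 with PHA and 9.53, 9.58 and 9.73 with ICG, against 10.17, 10.24 and 10.17 with DMSO. It had 10.83, 10.86 and 10.78 with PHA+ICG, against 11.63, 11.49 and 11.41 with DMSO of the second set. Treated arrays lay below DMSO in all 3 treatments without overlap, and replicates were close to each other. Lack of overlap alone is a weak mark here. Of 54 further pathway genes described below, 26 (PHA), 32 (ICG) and 16 (PHA+ICG) also did not overlap DMSO, in either direction. The differences were -0.14 ± 0.07 under PHA, -0.58 ± 0.07 under ICG and -0.68 ± 0.15 under PHA+ICG. In the last of these, Oat was counted as lower with the block and not without it. Under PHA alone Oat was not counted as lower, and the 95% interval of its difference ran from -0.29 to 0.01. PHA and ICG differed by 0.44 ± 0.07 (adjusted p = 0.000926), so Oat was lower with ICG than with PHA. Sms and its pseudogene together differed by -0.04, -0.24 and -0.57 with PHA, ICG and PHA+ICG by 1 shared probe set, by -0.14, -0.11 and -0.19 by another, and by 0.02, -0.08 and 0.05 by a dim one.

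**Figure D3:**
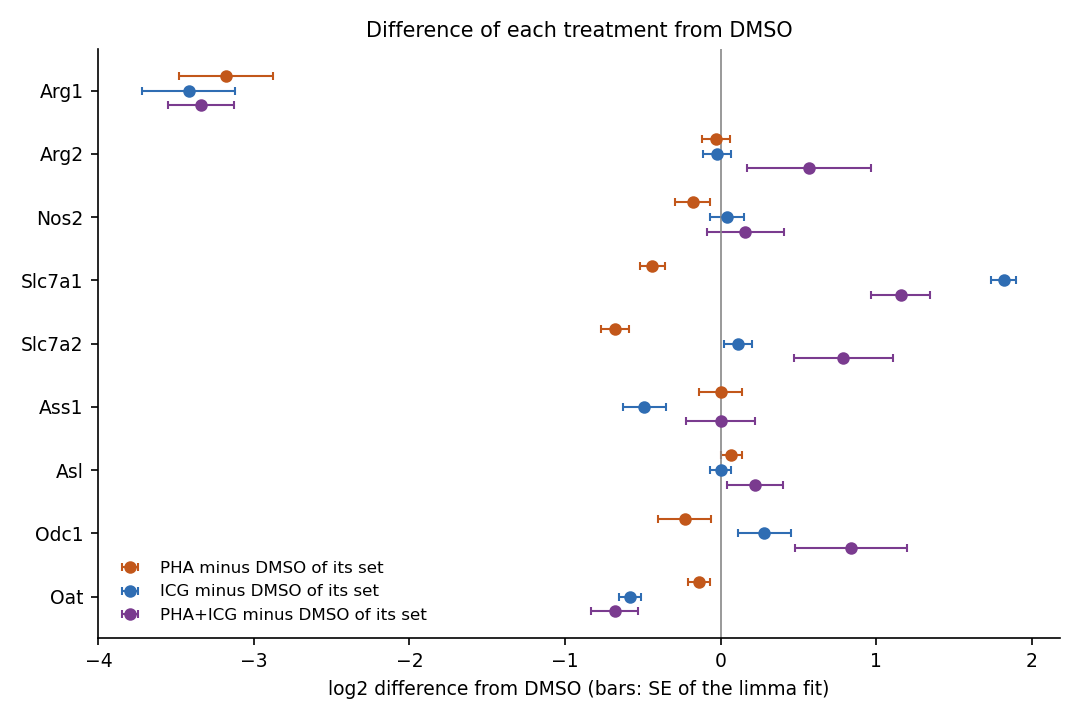
Difference of each treatment from the DMSO arrays of its set on the log2 scale (horizontal axis) for the 9 genes; points are the limma estimates and bars their SE, in the order PHA, ICG, PHA+ICG from top to bottom for each gene. The 3 Arg1 points lie between -3.42 and -3.18, while those of Slc7a1 lie at -0.44 (PHA), 1.82 (ICG) and 1.16 (PHA+ICG).

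The direct comparison of the single agents was not itself a contrast of the rule. It is the difference of 2 contrasts that chose the genes. Its p-values and counts for these genes are therefore no independent test. Of the 9 genes, 2 were higher with PHA than with ICG (Ass1 and Oat) and 3 were lower (Slc7a1, Slc7a2 and Odc1), where 27.1% of all genes passed. Both transporter genes and Odc1 thus lay on the ICG side, and Oat and Ass1 on the PHA side, while Arg1, Arg2, Asl and Nos2 did not pass. With the spread pooled over all 15 arrays 2 of these 5 calls passed.

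The wider pathway was read through 61 further genes in 7 lists, of which 54 were measured, and these were tested in every contrast. With PHA 2 were higher and 8 were lower, with ICG 10 were higher and 10 were lower, and with PHA+ICG 0 were higher and 1 was lower. Unadjusted p-values under 0.05 numbered 20, 32 and 12 for the 3 treatments, and the median difference over the 54 genes was 0.05, 0.05 and 0.00. The adjusted calls made up 18.5%, 37% and 1.85% of the 54 genes, beside 10.2%, 26.9% and 2.02% of all genes. The lists were chosen with earlier results of these data known. These shares and the p-values of the genes named below are therefore no independent test. With the pairing as a block 3 were higher and 3 were lower with PHA+ICG. With the spread pooled over all 15 arrays, 1 gene passed under PHA, 8 under ICG and 12 under PHA+ICG. PHA and ICG share their DMSO arrays, and 7 genes passed with both, of which 6 moved in the same direction and 1, Aldh18a1, in opposite directions.

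Among transport genes, 3 of 14 rose with ICG and none fell, or 21.4% beside 26.9% of all genes, and 1 rose and 1 fell with PHA, or 14.3% beside 10.2%. The third riser with ICG was Atp13a3 (0.21, adjusted p = 0.0238, and up to 0.0841 when any DMSO replicate or ICG replicate 2 was left out), a call also lost with the mean of its probe sets. Slc7a3, another cationic amino acid transporter gene, had log2 values of 9.07, 9.06 and 8.90 with ICG, against 6.27, 6.23 and 5.70 with DMSO, and rose by 2.94 ± 0.14 (adjusted p = 1.44e-06). With PHA it was at 6.13, 6.31 and 6.11, a difference of 0.11 ± 0.14 (adjusted p = 0.656). PHA and ICG differed for it by -2.83 ± 0.14 (adjusted p = 1.53e-06). With PHA+ICG it was at 7.86, 9.51 and 10.59, against 5.74, 7.46 and 7.75 with DMSO, a difference of 2.34 ± 0.72 that passed with the pairing as a block (adjusted p = 0.000105) and not without it (0.173). Slc3a2, the heavy chain that carries several amino acid transporters to the membrane, rose with ICG by 1.00 ± 0.08 (adjusted p = 2.64e-05) and with PHA+ICG differed by 1.07 ± 0.25 (adjusted p = 0.0758, and 0.0123 with the block). Together with Slc7a1 (1.82), these were the 3 highest ICG differences among the genes of the pathway, while with PHA Slc3a2 differed by -0.03 ± 0.08 (adjusted p = 0.833). Slc7a7, a partner of Slc3a2 that exports arginine, fell with PHA by 0.49 ± 0.06 (log2, adjusted p = 0.0012), and the vesicular polyamine transporter gene Slc18b1 rose by 0.42 ± 0.11 (adjusted p = 0.0353). The Slc18b1 call was lost without DMSO replicate 1 or 3 or PHA replicate 1 or 2, with adjusted p-values up to 0.117.

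Among genes that link ornithine, proline and glutamate, Aldh18a1 parted the agents. Aldh18a1, which makes the precursor shared by proline and ornithine, was at 8.25, 8.10 and 8.30 with PHA and 9.96, 9.97 and 9.81 with ICG, against 8.73, 9.06 and 8.95 with DMSO. It fell by 0.70 ± 0.09 with PHA (adjusted p = 0.0016) and rose by 0.99 ± 0.09 with ICG (adjusted p = 6.8e-05). The agents differed by -1.69 ± 0.09 (adjusted p = 3.57e-06), and with PHA+ICG the difference was 0.50 ± 0.20 (adjusted p = 0.303). Aldh4a1, of proline breakdown, rose with PHA by 0.28 ± 0.08 (adjusted p = 0.0467), and that call was lost without any 1 of the 6 arrays (0.0776 to 0.135). Prodh, the first enzyme gene of proline breakdown, differed by 0.98 with PHA+ICG (adjusted p = 0.221, and 0.0185 with the block).

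Creatine synthesis also starts from arginine, and 3 of 5 creatine genes fell with ICG and 2 with PHA, or 60% and 40% of a short list, beside 26.9% and 10.2% of all genes. Gamt, the methyltransferase of the last step, was at 5.60, 5.31 and 6.07 with ICG, against 6.82, 6.78 and 6.81 with DMSO, and fell by 1.14 ± 0.16 (adjusted p = 0.00067). With PHA+ICG it was at 5.83, 5.82 and 5.96, against 7.63, 7.17 and 6.99 with DMSO, and fell by 1.39 ± 0.20 (adjusted p = 0.0145), the one pathway gene that passed there. That p was 0.0752 without DMSO replicate 2, 0.0502 without PHA+ICG replicate 2 and 0.0695 without PHA+ICG replicate 3. With PHA Gamt differed by -0.52 ± 0.16 (adjusted p = 0.076). Ckb, the brain-type creatine kinase, fell by 0.67 ± 0.09 with PHA (adjusted p = 0.00142) and by 0.74 ± 0.09 with ICG (adjusted p = 0.000249), and the creatine transporter gene Slc6a8 fell by 0.34 ± 0.06 with PHA (adjusted p = 0.00887). With ICG Slc6a8 fell by 0.23 (adjusted p = 0.0211), a call lost without replicate 1 or 2 of DMSO or of ICG (up to 0.0743). With PHA+ICG Ckb differed by -1.32 (adjusted p = 0.0859, and 0.00278 with the block).

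Of the genes around nitric oxide and methylarginine, 3 of 10 rose and 2 fell with ICG (50% called, beside 26.9% of all genes), and 2 fell with PHA (20%, beside 10.2%). Ddah1, which clears the methylarginines that block nitric oxide synthases, was at 9.99, 9.87 and 10.08 with PHA and 9.31, 9.30 and 9.59 with ICG, against 10.71, 10.50 and 10.41 with DMSO. It fell by 0.56 ± 0.11 with PHA (adjusted p = 0.00861) and by 1.14 ± 0.11 with ICG (adjusted p = 5.7e-05), and the agents differed by 0.58 ± 0.11 (adjusted p = 0.0024). With PHA+ICG its difference was -1.56 ± 0.41 (adjusted p = 0.118, and 0.000431 with the block). The arginine methyltransferase gene Prmt1 fell by 0.35 ± 0.06 with PHA (adjusted p = 0.00619) and by 0.54 ± 0.06 with ICG (adjusted p = 0.000176). Nosip, whose product binds endothelial nitric oxide synthase, rose with ICG by 0.54 ± 0.07 (adjusted p = 0.000558; 0.36 with the mean of its probe sets). The methyltransferase genes Prmt3 and Prmt5 were the other risers, by 0.31 ± 0.07 (adjusted p = 0.01) and 0.38 ± 0.09 (adjusted p = 0.0103), and Prmt3 had 0.12 (adjusted p = 0.131) with the mean of its probe sets. In the separate urea cycle list, Nags, which makes the activator of the cycle's first step, rose with ICG by 0.47 ± 0.10 (adjusted p = 0.0075).

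Downstream of Odc1, 2 of 7 genes of polyamine synthesis and its control fell with PHA and the same number with ICG. That is 28.6% of the list each time, beside 10.2% of all genes with PHA and 26.9% with ICG, so the ICG share is near that of all genes. Srm, the spermidine synthase gene, was at 10.14, 10.10 and 10.10 with PHA and 9.72, 9.58 and 9.65 with ICG, against 10.34, 10.33 and 10.46 with DMSO. It fell by 0.73 ± 0.06 with ICG (adjusted p = 4.34e-05) and by 0.27 ± 0.06 with PHA (adjusted p = 0.028). The PHA call was lost when DMSO replicate 2 (0.0549) or 3 (0.0922) or PHA replicate 1 (0.0692), 2 (0.0892) or 3 (0.0804) was left out. Azin1, the antizyme inhibitor that shields ornithine decarboxylase from degradation, fell by 0.27 ± 0.06 with PHA (adjusted p = 0.015, up to 0.0532 without PHA replicate 2 or 3, and 0.0819 with the mean of its probe sets). With ICG Azin1 fell by 0.22 (adjusted p = 0.0173), a call lost without DMSO replicate 3 or ICG replicate 1 (up to 0.0591). Dhps, which uses spermidine to modify the translation factor eIF5A, fell with ICG by 0.59 ± 0.07 (adjusted p = 0.000161), and Sat2, a spermidine acetyltransferase family gene, fell by 0.38 ± 0.11 (adjusted p = 0.0243, and up to 0.0846 without replicate 2 or 3 of DMSO or of ICG). Odc1 itself differed from DMSO by 0.28 ± 0.17 with ICG. Its arrays overlapped DMSO and its 95% interval ran from -0.10 to 0.67, so its direction was not settled.

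**Figure D4:**
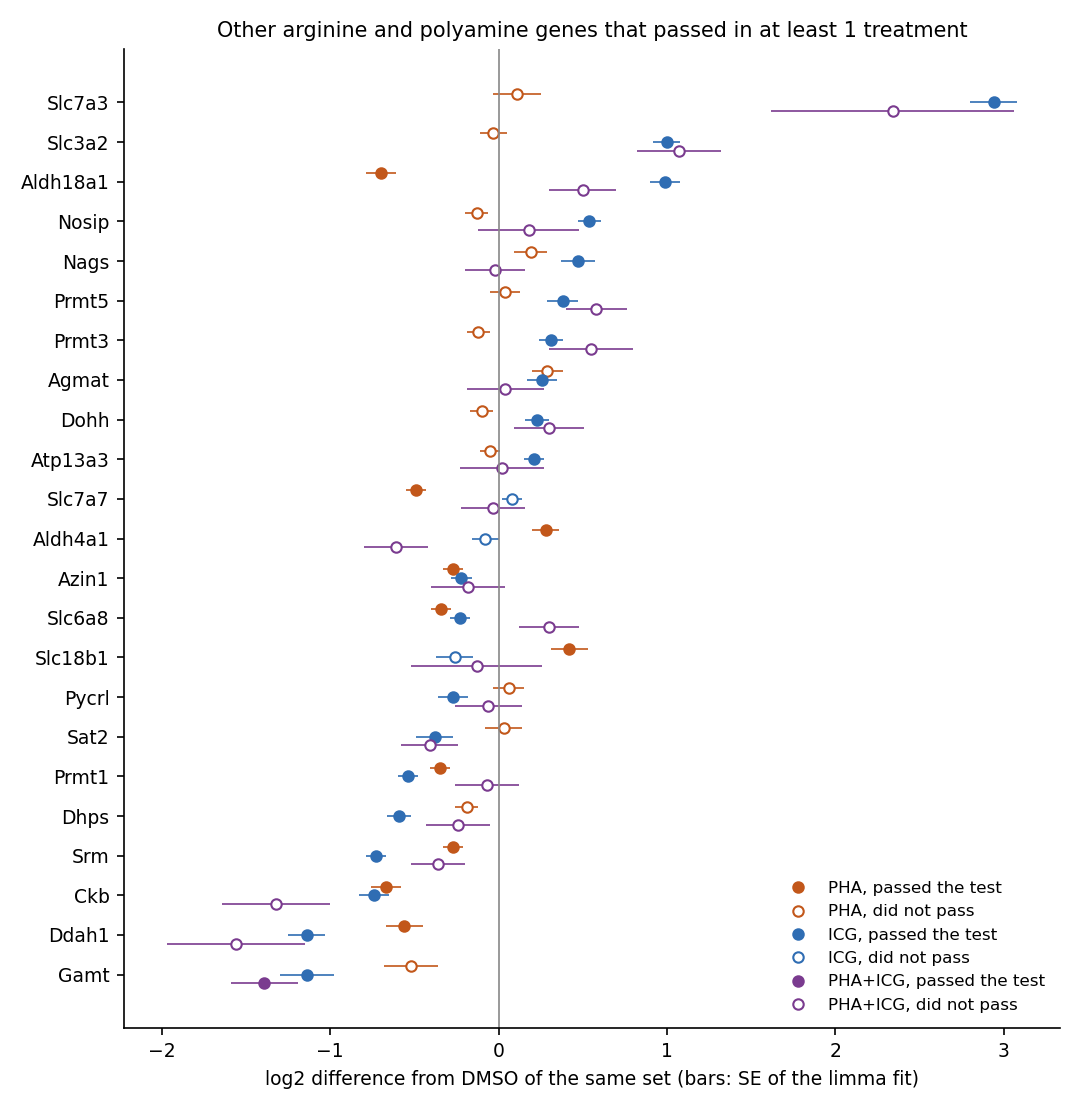
Difference from the DMSO arrays of the same set on the log2 scale (horizontal axis) for the 23 further pathway genes that passed in at least 1 treatment, ordered by their difference with ICG; filled points passed at an adjusted p under 0.05, open points did not, and bars are the SE of the limma fit. Slc7a3, Slc3a2 and Aldh18a1 are highest with ICG, Ddah1 and Gamt lowest, and with PHA+ICG only Gamt is filled.

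Between PHA and ICG 11 of the 54 genes were higher and 9 lower, which is 37%, beside 27.1% of all genes. Besides those given above, Slc3a2 differed by -1.04 ± 0.08 (adjusted p = 1.79e-05), Slc18b1 by 0.68 ± 0.11 (adjusted p = 0.00103) and Nosip by -0.66 ± 0.07 (adjusted p = 0.000147). Slc7a7 differed by -0.57 ± 0.06 (adjusted p = 0.000128), Srm by 0.46 ± 0.06 (adjusted p = 0.000492) and Prmt3, another arginine methyltransferase gene, by -0.43 ± 0.07 (adjusted p = 0.00163). Gamt differed by 0.62 ± 0.16 (adjusted p = 0.017), Gatm, the first enzyme gene of creatine synthesis, by 0.42 ± 0.14 (adjusted p = 0.0473) and Sat2 by 0.41 ± 0.11 (adjusted p = 0.0158). The Gamt call was lost without replicate 1 or 2 of either agent (up to 0.0614), that of Gatm without any 1 array other than PHA replicate 2 (up to 0.127) and that of Sat2 without ICG replicate 2 or 3 (up to 0.0608). Of the transport genes named, Slc7a3, Slc3a2 and Slc7a7 thus lay on the ICG side and Slc18b1 on the PHA side, and Gamt, Gatm and Srm also lay on the PHA side.

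Between the vehicle groups 7 of the 54 genes were higher and 8 lower in the second set, or 27.8%. That is near the 27.4% of all genes, so the count says nothing particular about the pathway. Ckb differed by -1.36 ± 0.24 (adjusted p = 0.000537), Slc6a8 by -1.01 ± 0.12 (adjusted p = 2.14e-05) and Smox, the spermine oxidase gene, by -0.87 ± 0.12 (adjusted p = 5.6e-05). The lysosomal polyamine exporter gene Atp13a2 was 2.01-fold lower (adjusted p = 0.00179), and Slc7a7 differed by -0.60 ± 0.13 (adjusted p = 0.0031). The Slc7a7 difference was -0.20 (adjusted p = 0.118) with the mean of its probe sets. Aldh18a1 was higher by 1.02 ± 0.15 (adjusted p = 9.46e-05), Ddah2 by 0.95 ± 0.12 (adjusted p = 2.14e-05) and the antizyme gene Oaz2 by 0.94 ± 0.12 (adjusted p = 4.67e-05). Prmt5 was higher by 0.77 ± 0.13 (adjusted p = 0.000345) and Mtap, which salvages the by-product of polyamine synthesis, by 0.65 ± 0.13 (adjusted p = 0.00135). Slc3a2 differed by -0.55 ± 0.18 (adjusted p = 0.0328) and the mitochondrial carrier gene Slc25a29 by -0.42 ± 0.15 (adjusted p = 0.0465). Both of these calls were lost without 5 of the 6 arrays in turn, passing only without DMSO replicate 2 of the second set (0.0472 for Slc3a2) and without DMSO replicate 1 of the second set (0.00969 for Slc25a29). With the mean of their probe sets Slc25a29 was at -0.21 (adjusted p = 0.312), and Aldh18a1 and Slc6a8 passed at 0.66 and -0.67.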

How the data were processed

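RNA from 15 mammosphere samples (250 ng each) was hybridised to Affymetrix arrays, per the labels. The deposited table holds log2 values of 45101 probe sets; the submitters' processing notes name MAS5 and RMA, with neither roles nor versions, and whether both sets were normalized together is not given in the sources used here. Normalizing sets apart would move levels between sets, so treatments were compared within a set. Control probe sets (64) were left out. Genes came from the platform annotation: 34945 probe sets had 1 symbol, 932 several and 9160 none, and those with several or none were not used in tests. Of a gene's probe sets the one with the highest mean was used. Group means were fitted with limma 3.58.1 (R 4.3.3) separately in the first set (9 arrays) and the second (6 arrays), and on all 15 arrays between the DMSO groups, with Benjamini-Hochberg adjustment over 18193 genes and a threshold of 0.05. The scripts were tested on simulated data. The number of arrays limits the precision. The members and lists were chosen with earlier results of these data known. Further pathway genes were named when called, up to 12 per comparison by size of change. Markers of 8 kinds of cells or states served as checks. Arrays of the second set with the same replicate number deviated together (correlations 0.61, 0.36 and 0.28). Only replicate 1 was set apart by this. PHA+ICG replicate 2 with DMSO replicate 3 had 0.35, and PHA+ICG replicate 3 with DMSO replicate 2 had 0.24. The labels give no pairing, so the replicate block takes it as an assumption. Pooled spread, quantile normalization, median centring, the mean of probe sets, a filter on dim genes, a replicate block and left-out arrays were tried. Members without a probe set of their own in tests (Sms) and 7 further pathway genes were not analysed here.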

Additional observations from a re-analysis of the deposited data

How the results depend on the processing

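The member calls between the DMSO groups kept their direction under every alternative, and Ass1 there lost its call without DMSO replicate 2 or 3 of the first set. With the spread pooled over all 15 arrays, the calls over all genes numbered 182 with PHA, 1255 with ICG, 2413 with PHA+ICG and 1463 between PHA and ICG, against 1858, 4896, 368 and 4939 with the spread of each set. The calls among the further pathway genes then numbered 1, 8, 12 and 5, against 10, 20, 1 and 20, and among the members 2 against 5 between PHA and ICG. Without single arrays, the calls over all genes ran from 1005 to 1691 with PHA and from 56 to 389 with PHA+ICG, those of further pathway genes from 6 to 10 and from 0 to 3, and member calls between PHA and ICG from 3 to 4. The low end for PHA+ICG came without DMSO replicate 3 of the second set (56). The replicate block gave 1442 calls and 6 among the further genes with PHA+ICG. In the first set, where the numbers do not pair the arrays (correlations from -0.26 to 0.12), it gave 1202 calls with PHA, and Odc1 between PHA and ICG had an adjusted p of 0.0714. Quantile normalization and median centring gave 2 further genes with PHA+ICG. An alternative chosen after seeing the data, without replicate 1 of both groups of the second set, gave 886 calls and 4 further genes. Slc7a4 between the DMSO groups was -0.07 with the mean of its probe sets, against 0.36 without that averaging. The cause of these shifts was not tested. Values around the median probe set of the arrays (5.734 to 5.928), such as those of Nos2 and of the own probe set of Ass1, may be limited by background signal. The same holds for Arg1 on the treated arrays (4.69 to 6.66) and for Arg2 in the second set (5.08 to 6.82). The folds of both genes may be limited by it, which was not tested.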
